A study of Mus musculus with 6 samples.

Results

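The genes described here are 10 neural splicing factors of 4 families: the RBFOX genes Rbfox1 and Rbfox2, the polypyrimidine tract binding (PTB) genes Ptbp1, Ptbp2 and Ptbp3, the NOVA genes Nova1 and Nova2, and the KHDRBS genes Khdrbs1, Khdrbs2 and Khdrbs3. They were chosen by name. Every probe set that the platform's annotation gives to 1 of these genes alone was taken, under the current symbol or under the older symbols A2bp1 (Rbfox1), Rbm9 (Rbfox2) and Rod1 (Ptbp3). This gave 202 probe sets of 10 genes, out of 316997 probe sets with a single gene symbol and 22071 genes. All 10 genes were measured, with 196 of the 202 probe sets above the filter on low values.

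The study measured total RNA of mouse primary cortical neurons on 6 Affymetrix exon arrays, 3 for a control shRNA (short hairpin RNA) and 3 for the Cugbp1 shRNA, which targets the gene now called Celf1. Both groups were cortical cells of C57BL/6 embryos at embryonic day 15, grown with BDNF and CNTF, exposed to AraC overnight from day 2, infected with lentivirus for 4 hours on day 5 and harvested on day 11. The labels do not say whether arrays of a group came from separate cultures, so p values measure the spread between these arrays, which may be technical. For arrays numbered 2 and 3, control and Cugbp1 shRNA alike, the protocol speaks of Tdp-43 shRNAs while titles and genotypes speak of Cugbp1, so values of each replicate number are given for the genes the results turn on. Neurons were labelled as the cell type, and 9 of 10 neuron markers were measured, with a mean gene value of 11.95 to 12.10 over the controls. In bulk RNA, fewer cells of a type and less RNA per cell cannot be told apart.

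These proteins bind short RNA motifs in introns and exons and decide which exons enter the mature mRNA. RBFOX proteins bind UGCAUG and promote or repress an exon depending on the side on which they bind. PTB proteins bind pyrimidine-rich RNA and mostly repress exons, and the replacement of PTBP1 by PTBP2 during neuronal differentiation is a textbook switch of neuronal splicing. NOVA proteins bind YCAY clusters in neurons and control exons of synaptic genes, and the KHDRBS proteins (SAM68, SLM1 and SLM2) bind A- and U-rich RNA and control neurexin exons, among others. CELF1, the target of the shRNA, is itself a regulator of splicing and mRNA decay.

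The shRNA target was lower in every array of its group. The Celf1 gene value was 10.85, 10.79 and 10.75 in control replicates 1, 2 and 3 and 9.59, 9.40 and 9.33 in the Cugbp1 shRNA arrays. The log2 change was -1.36 (standard error 0.10, limma adjusted p = 0.0124). Without single arrays it was -1.43 to -1.32 (adjusted p = 0.0308 to 0.141) and passed only without control replicate 1. Of all genes tested 271 passed in that setting, and 0 or 1 passed without any other single array. Tardbp, the gene of TDP-43, had a log2 change of -0.03 (limma adjusted p = 0.961), with differences of -0.13, -0.15 and 0.18 in replicate numbers 1, 2 and 3. A gene value is the log2 level of a gene on an array, summarised over its probe sets by median polish, and a call is a limma p adjusted over all 16524 genes tested that is under 0.05.

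Rbfox1 and Ptbp3 fell with the Cugbp1 shRNA, and the other 8 genes did not pass. Of all genes tested 3.94% were called, 1.10% higher and 2.84% lower, against 2 of the 10 genes here, both lower. The median log2 change of the 10 was -0.03, and that of all genes was -0.01. The groups did not overlap for 2 of the 10 genes, the same 2, and for 25.2% of all genes tested (14.4% lower, 10.8% higher). The change was negative in all 3 replicate numbers for 3 of the 10 genes and for 31.6% of all genes, and positive in all 3 for 2 genes and 25.9% of all genes. With the replicate number as a block, the same 2 passed, where 23.2% of all genes did (9.31% higher, 13.8% lower).

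Rbfox1 encodes a neuron-enriched RBFOX protein that acts in the nucleus on exons and, as a cytoplasmic form, on mRNA stability. Its gene value was 11.32, 11.30 and 11.31 in control replicates 1, 2 and 3, and 10.93, 10.87 and 10.95 in the Cugbp1 shRNA arrays. The 3 controls lay within 0.02 of each other and all 3 Cugbp1 shRNA arrays lay below them. The mean was 11.31 ± 0.01 (SD, n = 3) in controls and 10.92 ± 0.04 (SD, n = 3) after the Cugbp1 shRNA. Rbfox1 fell by 0.39 on the log2 scale (standard error 0.08, limma adjusted p = 0.0435), which left 76.2% of the control level (95% interval 66.9% to 86.7%). The difference was -0.39, -0.43 and -0.36 in replicate numbers 1, 2 and 3. Leaving out any 1 of the 6 arrays gave changes of -0.39 to -0.34 and lost the call in every case (adjusted p = 0.0935 to 0.201), as did arrays numbered 2 and 3 alone (adjusted p = 0.0650).

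Ptbp3, the PTB paralog first described as a differentiation regulator of blood cells, fell the most of the 10 genes. Its gene value was 10.25, 10.64 and 10.26 in control replicates 1, 2 and 3, and 9.67, 9.85 and 9.69 in the Cugbp1 shRNA arrays. Replicate 2 was the highest array of both groups, and the highest Cugbp1 shRNA array lay below the lowest control. The mean was 10.38 ± 0.22 (SD, n = 3) in controls and 9.73 ± 0.10 (SD, n = 3) after the Cugbp1 shRNA. Ptbp3 fell by 0.65 on the log2 scale (standard error 0.13, limma adjusted p = 0.0406), to 63.8% of the control level (95% interval 51.8% to 78.6%). The difference was -0.58, -0.79 and -0.58 in replicate numbers 1, 2 and 3. Leaving out any 1 array gave changes of -0.72 to -0.53 and lost the call each time (adjusted p = 0.0742 to 0.216), as did arrays numbered 2 and 3 alone (adjusted p = 0.0598). Without 1 array, 0 or 1 of all genes were called, except without control replicate 1 (271), so this loss is hardly particular to Ptbp3.

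**Figure D1:**
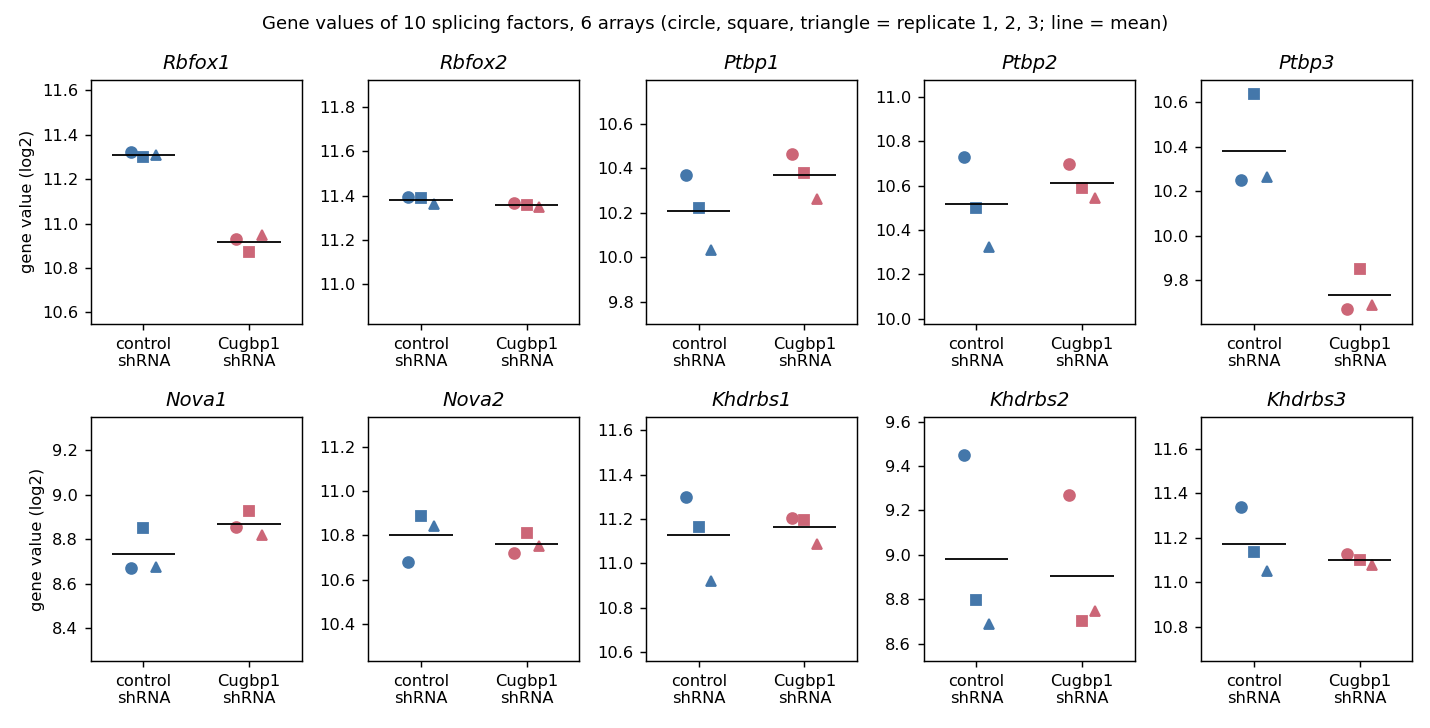
Gene value (log2) of each of the 10 splicing factors on the y axis for the 3 control and 3 Cugbp1 shRNA arrays on the x axis, every panel spanning the same log2 range, with lines at the group means. All Cugbp1 shRNA arrays lie below all controls for Rbfox1 (10.87 to 10.95 against 11.30 to 11.32) and Ptbp3 (9.67 to 9.85 against 10.25 to 10.64), and the groups overlap in the other 8 panels.

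None of the paralogs of these 2 genes passed. Rbfox2, the more broadly expressed RBFOX gene, was at 11.40, 11.39 and 11.36 in controls and at 11.37, 11.36 and 11.35 after the Cugbp1 shRNA. Its log2 change was -0.02 (95% interval -0.21 to 0.16, limma adjusted p = 0.936), and the groups overlapped within a narrow range. The change of Rbfox1 minus that of Rbfox2 was -0.37, and ran from -0.40 to -0.35 over the replicate numbers. This difference has an exact permutation p of 0.10 (two-sided, n = 3 per group), the smallest that 3 against 3 arrays can give, and an adjusted p of 0.20 over the 8 pairs of related genes compared.

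Ptbp1, the PTB protein of progenitors and non-neuronal cells, was at 10.37, 10.22 and 10.03 in controls and at 10.47, 10.38 and 10.26 after the Cugbp1 shRNA. Ptbp2, the neuronal PTB protein, was at 10.73, 10.50 and 10.33 in controls and at 10.70, 10.59 and 10.54 after the Cugbp1 shRNA. In both genes the replicate numbers kept 1 order in both groups, with replicate 1 highest and replicate 3 lowest, and the groups overlapped. Ptbp1 was higher in every replicate number (0.10, 0.16 and 0.23). Of its 28 kept probe sets 23 had a higher mean and 5 a lower one. The gene value summarises these same probe sets, so their count adds no support to a rise. The log2 change was 0.16 for Ptbp1 (95% interval -0.11 to 0.43, limma adjusted p = 0.551) and 0.09 for Ptbp2 (-0.19 to 0.38, adjusted p = 0.798). The change of Ptbp3 differed from that of Ptbp1 by -0.81 and from that of Ptbp2 by -0.74, each with an exact permutation p of 0.10, again the smallest possible, and an adjusted p of 0.20. Ptbp1 and Ptbp2 differed from each other by 0.07 in their changes (exact permutation p = 0.20, adjusted p = 0.267).

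The NOVA genes did not pass. Nova1 was at 8.67, 8.85 and 8.67 in controls and at 8.86, 8.93 and 8.82 after the Cugbp1 shRNA, higher in all 3 replicate numbers but with overlapping groups, and its log2 change was 0.14 (95% interval -0.08 to 0.35, limma adjusted p = 0.517). Nova2, the NOVA gene of most cortical neurons, was at 10.68, 10.89 and 10.84 in controls and at 10.72, 10.81 and 10.75 after the Cugbp1 shRNA. Its log2 change was -0.04 (95% interval -0.26 to 0.18, limma adjusted p = 0.897). The changes of Nova1 and Nova2 differed by 0.18 (exact permutation p = 0.10, adjusted p = 0.20).

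The KHDRBS genes, which encode SAM68 (Khdrbs1), SLM1 (Khdrbs2) and SLM2 (Khdrbs3), did not pass either. Khdrbs1, the ubiquitous member, was at 11.30, 11.16 and 10.92 in controls and at 11.21, 11.20 and 11.09 after the Cugbp1 shRNA, a log2 change of 0.04 (95% interval -0.24 to 0.31, limma adjusted p = 0.939). Khdrbs3 was at 11.34, 11.13 and 11.05 in controls and at 11.13, 11.10 and 11.08 after the Cugbp1 shRNA, a log2 change of -0.07 (-0.31 to 0.16, adjusted p = 0.813). Khdrbs2 was at 9.45, 8.80 and 8.69 in controls and at 9.27, 8.70 and 8.75 after the Cugbp1 shRNA. Replicate 1 was the high array in both groups, so the SD was 0.41 in controls and 0.32 after the Cugbp1 shRNA. Its log2 change was -0.07 with the widest interval of the 10 genes (95% interval -0.62 to 0.47, limma adjusted p = 0.937). The 3 pairs of KHDRBS genes differed in their changes by 0.11, 0.11 and less than 0.01, with exact permutation p values of 0.60 (Khdrbs1 and Khdrbs2), 0.20 (Khdrbs1 and Khdrbs3) and 1. These permutations take the arrays as unpaired. Over the replicate numbers the difference ran from 0.09 to 0.13 for Khdrbs1 minus Khdrbs2, from 0.07 to 0.14 for Khdrbs1 minus Khdrbs3, and from -0.06 to 0.03 for Khdrbs2 minus Khdrbs3.

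**Figure D2:**
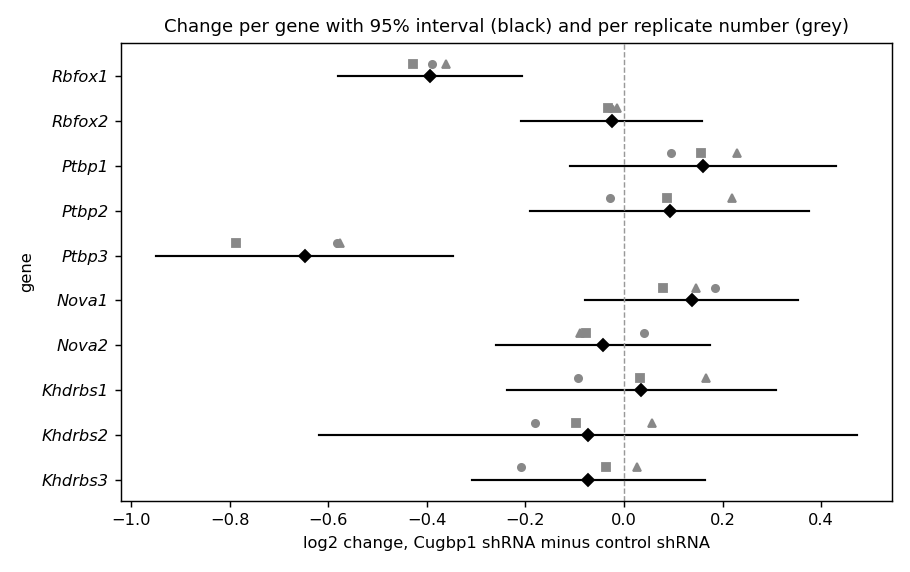
Log2 change (x axis, Cugbp1 shRNA minus control shRNA) of each gene (y axis), with limma's estimate and 95% interval in black and the difference of the arrays of replicate numbers 1 (circle), 2 (square) and 3 (triangle) in grey. The intervals of Rbfox1 (-0.58 to -0.21) and Ptbp3 (-0.95 to -0.35) lie below 0 and the other 8 include it.

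Single probe sets show how much of each gene took part, and an exon array carries a probe set for most exons. Of 28 kept Rbfox1 probe sets 25 had a lower mean, 20 were lower with no overlap between groups and 15 had an unadjusted p under 0.05, all lower. Of 18 Ptbp3 probe sets all 18 had a lower mean, 16 were lower with no overlap and 17 had an unadjusted p under 0.05. The gene values of Rbfox1 and Ptbp3 summarise these same probe sets on the same arrays. Most of them being lower therefore follows from the calls and adds no support to them. Among all 597778 kept probe sets, those without a gene symbol included, 12% did not overlap (6.57% lower, 5.44% higher) and 5.92% had an unadjusted p under 0.05. Of the 150 kept probe sets of the other 8 genes, 0 had an unadjusted p under 0.05 in limma, while 3 were lower and 9 higher with no overlap. Adjusted over all kept probe sets, limma called 0 of the 196 (32 at an unadjusted p under 0.05, smallest adjusted p = 0.487), and it called 0.00% of all probe sets. The 9 probe sets that were higher with no overlap were 6 of Ptbp1, 1 of Ptbp2 and 2 of Nova1.

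**Figure D3:**
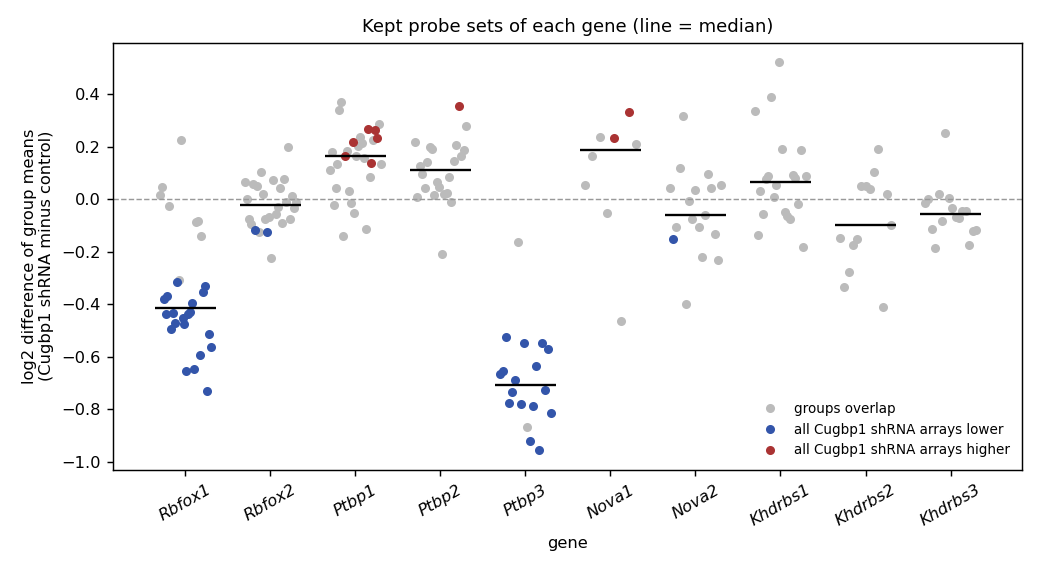
Log2 difference of group means (y axis, Cugbp1 shRNA minus control) of each kept probe set, by gene (x axis), with a line at the median. Blue points are lower and red points higher in all Cugbp1 shRNA arrays. Nearly all blue points belong to Rbfox1 (20 of 28 probe sets) and Ptbp3 (16 of 18).

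The Rbfox1 probe set with the smallest p, 5397347, was at 10.54, 10.87 and 10.57 in controls and at 10.07, 9.94 and 9.77 after the Cugbp1 shRNA, a log2 difference of -0.73 (limma adjusted p = 0.548). The Ptbp3 probe set with the smallest p, 5073014, was at 10.36, 10.43 and 10.09 in controls and at 9.44, 9.59 and 9.49 after the Cugbp1 shRNA, a log2 difference of -0.79 (limma adjusted p = 0.487). In both, every Cugbp1 shRNA array was below every control. In the other genes the probe sets of smallest p had log2 differences of 0.20 for Rbfox2 (5448331), 0.37 for Ptbp1 (4756999), 0.35 for Ptbp2 (5468415), 0.33 for Nova1 (5138334), -0.40 for Nova2 (4711619), 0.52 for Khdrbs1 (5008693), -0.41 for Khdrbs2 (5010675) and -0.12 for Khdrbs3 (5610555). Of these 8, the groups did not overlap for Ptbp2 5468415 and Nova1 5138334, and limma adjusted p ran from 0.908 to 1.

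The probe sets of Rbfox1 that did not separate the groups were mostly dim ones. With a dividing level of 10 on the log2 scale, chosen after the values were seen and applied to the mean over all 6 arrays, 18 of 19 brighter Rbfox1 probe sets were lower with no overlap, with a median difference of -0.44, against 2 of 9 dimmer ones, with a median of -0.09. For Ptbp3, 9 of 9 brighter and 7 of 9 dimmer probe sets were lower with no overlap, with medians of -0.64 and -0.79. The bright Rbfox1 exception, probe set 4451868, also singled out after its values were seen, was at 12.43, 12.63 and 12.92 in controls and at 12.54, 12.53 and 12.84 after the Cugbp1 shRNA. The groups overlapped there, with a log2 difference of -0.02, and its position relative to the rest of Rbfox1 was 0.34 (standard error 0.33, diffSplice adjusted p = 1). The exon that it represents is not known here, since positions of probe sets were not used.

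**Figure D4:**
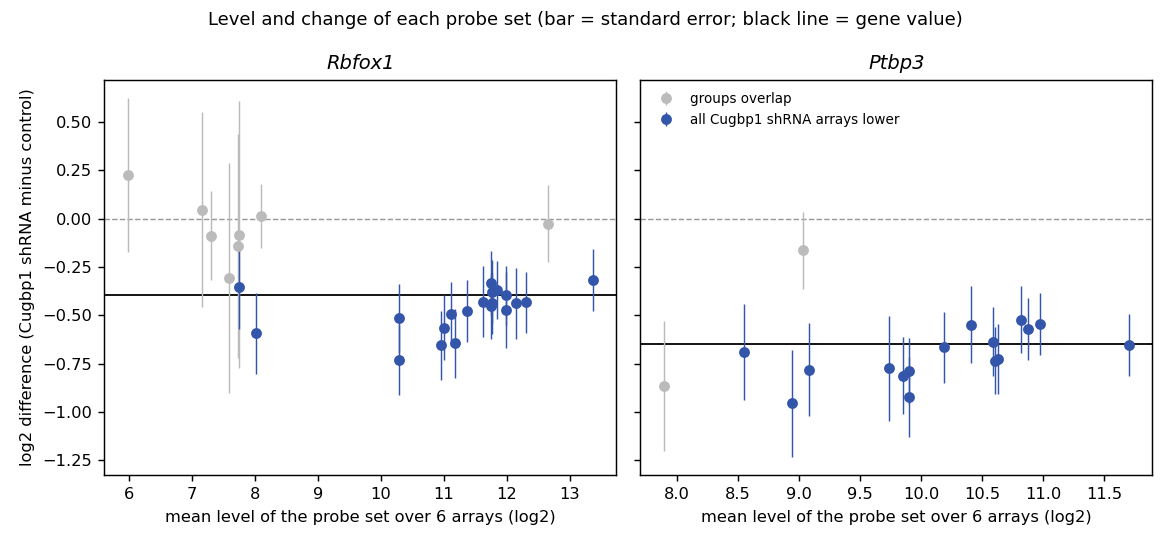
Log2 difference of each kept probe set of Rbfox1 (left) and Ptbp3 (right) on the y axis, with limma's standard error, against its mean level over 6 arrays (log2, x axis). The black line is the gene value's change (-0.39 and -0.65), and grey points are probe sets whose groups overlap, which for Rbfox1 are dim but for 1 at 12.6.

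Exon usage, the change of a probe set relative to the rest of its gene, showed no call in these 10 genes. By limma's diffSplice 0 of their 196 probe sets passed (2 at an unadjusted p under 0.05, smallest adjusted p = 0.734), and 0 of the 10 genes passed a Simes test over their probe sets (smallest adjusted p = 0.700). Of all 244606 probe sets tested 0.0822% passed and 3.07% had an unadjusted p under 0.05, and 0.847% of genes passed the Simes test. The 2 with an unadjusted p under 0.05 were probe set 4931584 of Nova1 and 4838882 of Ptbp3. Nova1 4931584 was at 8.43, 8.81 and 8.16 in controls and at 7.59, 8.44 and 7.98 after the Cugbp1 shRNA, -0.63 relative to its gene (standard error 0.22, diffSplice adjusted p = 0.734), lower in each replicate number while the gene value of Nova1 was not. Ptbp3 4838882 was at 8.89, 9.22 and 9.23 in controls and at 8.67, 9.13 and 9.05 after the Cugbp1 shRNA. That difference of -0.16 was the smallest among the Ptbp3 probe sets, 0.55 above the rest of the gene (standard error 0.21, diffSplice adjusted p = 0.960).

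With the replicate block diffSplice called 5 of the 196 probe sets, or 2.55%, where it called 2.37% of all probe sets. They were these 2 (adjusted p = 0.0101 for Nova1 and 0.0117 for Ptbp3), Rbfox1 4851792 (0.60 relative to its gene, adjusted p = 0.00572), and 2 of Nova2, 4711619 (-0.38, adjusted p = 0.0453) and 4686668 (0.38, adjusted p = 0.0379). Rbfox1 4851792 was a dim probe set, at 6.78, 5.57 and 5.26 in controls and at 6.39, 6.12 and 5.77 after the Cugbp1 shRNA. In the other members the smallest diffSplice p belonged to Rbfox2 5448331 (0.23), Ptbp1 4765757 (-0.29), Ptbp2 5307560 (-0.33), Khdrbs1 5008693 (0.47), Khdrbs2 5010675 (-0.35) and Khdrbs3 4777740 (0.32), each given as the log2 difference relative to its gene, and none passed in either fit.

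The RefSeq promoter table (build GRCm38.p6, 250 bases before to 50 after a gene's start) held 7 windows of 6 of the 10 genes: 2 of Rbfox1 and 1 each of Ptbp1, Ptbp2, Nova1, Nova2 and Khdrbs2. Those of Rbfox1 are printed because this gene fell in most of its bright probe sets and starts at more than 1 site. They are shown 5′ to 3′ on the plus strand, the 250 bases before each start, at chr16:5884543-5884792 and chr16:7069585-7069834, with CpG dinucleotides in capitals.
Rbfox1 window 1: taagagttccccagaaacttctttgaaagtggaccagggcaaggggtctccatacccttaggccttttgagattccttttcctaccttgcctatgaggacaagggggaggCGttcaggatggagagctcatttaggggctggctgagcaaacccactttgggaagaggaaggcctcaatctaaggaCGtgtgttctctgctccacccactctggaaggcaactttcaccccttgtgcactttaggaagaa
Rbfox1 window 2: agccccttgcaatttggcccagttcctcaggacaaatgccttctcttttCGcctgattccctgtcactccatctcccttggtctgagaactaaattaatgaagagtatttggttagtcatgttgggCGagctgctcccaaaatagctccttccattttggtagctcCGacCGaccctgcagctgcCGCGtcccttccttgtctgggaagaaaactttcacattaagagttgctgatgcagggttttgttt
Over the full 300 bases the first window held 3 CpG and the second 7, and 7 is also the median of 32851 windows in the table. Ptbp2 held 36, Khdrbs2 26, Ptbp1 22, Nova2 17 and Nova1 14, so Rbfox1 had the lowest counts of the 6 genes in the table. Ptbp3, the other called gene, had no window there. Searched on both strands, TATAAA was in none of the 7 windows and in 13.6% of all windows, and CCAAT was in the Ptbp1 and Khdrbs2 windows and in 37.4% of all windows. These are descriptions of the windows, and the arrays do not tell the start sites of Rbfox1 apart here.

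The genes whose pattern was most like those of the 2 called members were found by the root mean square difference over the 6 arrays, each gene first set to its own control mean. For Rbfox1 they were Ino80c, a subunit of the INO80 chromatin remodeller (root mean square difference 0.028, log2 change -0.42), Rpusd1, a pseudouridine synthase-like protein (0.029, log2 change -0.37), and Borcs7, a subunit of a complex that positions lysosomes (0.035, log2 change -0.37). For Ptbp3 they were Cntn2, an axonal adhesion protein (0.041, log2 change -0.61), Tap1, a peptide transporter of antigen presentation (0.042, log2 change -0.65), and Tyw5, an enzyme of tRNA modification (0.044, log2 change -0.62).

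Other splicing regulators had no call. A list of 40, of which 38 were measured, holds MBNL, ELAVL, hnRNP and SR genes and PTB partners. Of these 38 limma called 0, where 3.94% of all genes were called. An unadjusted p under 0.05 was found for 5, and for 18.8% of all genes. A higher mean was found for 26 of the 38, and for 7686 of all 16524 genes. The median log2 change was 0.08, against -0.01 for all genes. With the replicate block 5 of the 38 passed, all higher, where 23.2% of all genes passed and 9.31% were higher. The smallest p belonged to Srsf5, an SR protein, at 0.38 (standard error 0.12, limma adjusted p = 0.131, and 0.00917 with the block), and Mbnl1, an RNA-binding protein that shares exons with CELF1, at 0.36 (adjusted p = 0.147, and 0.0107 with the block). Raver2, which encodes a PTB cofactor and was singled out after its values were seen, was at 8.55, 8.71 and 8.83 in controls and at 8.87, 9.23 and 9.16 after the Cugbp1 shRNA. Its log2 change was 0.39 (limma adjusted p = 0.154, and 0.0118 with the block), with no overlap between groups.

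Genes reported to carry exons controlled by these families were counted next, at the level of the whole gene, where 3.94% of all genes were called, and 23.2% with the block. Some members are on these lists, so counts and medians partly restate their values. They are Nova1 on the NOVA list, Rbfox1, Rbfox2 and Ptbp2 on the RBFOX list, and Ptbp1, Ptbp2 and Ptbp3 on the PTB list. Of 12 measured NOVA target genes 1 fell: Glra2, a glycine receptor subunit whose exon choice is a founding NOVA example, was at 11.89, 12.01 and 11.77 in controls and at 11.13, 11.09 and 10.97 after the Cugbp1 shRNA. Glra2 fell by 0.83 on the log2 scale (standard error 0.10, limma adjusted p = 0.0176). Mapk9, the kinase JNK2, was at -0.42 (limma adjusted p = 0.0518, and 0.00793 with the block), and the list's median was -0.09. With the replicate block 5 of the 12 NOVA target genes were lower and 1 higher, where 13.8% of all genes were lower and 9.31% higher.

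Of 11 measured RBFOX target genes, Enah, an actin regulator with a splice form of epithelial cells, rose, and Rbfox1, which regulates its own exons and is on the list, fell. Enah was at 10.76, 10.71 and 10.89 in controls and at 11.39, 11.53 and 11.46 after the Cugbp1 shRNA, so it rose by 0.68 on the log2 scale (standard error 0.09, limma adjusted p = 0.0183). The list's median was 0.09, which is the value of Ptbp2, a member on the list. Of 12 measured PTB target genes only Ptbp3 itself fell, with a median of 0.11, and Vcl, the adhesion protein vinculin, was at -0.43 (limma adjusted p = 0.102). With the replicate block 1 PTB target gene was higher and 2 lower, Vcl included (adjusted p = 0.0183). Of 6 measured KHDRBS target genes 0 passed in limma with or without the block (0 at an unadjusted p under 0.05). Their median was -0.01, with Cd44 at -0.19 and Bcl2l1 at -0.11. Outside the 10 members, 4 genes of all lists were called (Glra2, Enah, Pdgfrb and Thbs1), and 0 to 1 were without any 1 array.

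Within these target genes, the members on the lists included, diffSplice called 4 probe sets. Of 462 NOVA target probe sets 3 passed, or 0.649%, of 381 RBFOX target probe sets 1, or 0.262%, and of 230 PTB and 216 KHDRBS target probe sets 0 passed, where 0.0822% of all probe sets did. With the replicate block the counts were 28 (6.06%), 12 (3.15%), 2 (0.87%) and 10 (4.63%), where 2.37% of all probe sets passed. These counts include the probe sets of Nova1, Rbfox1 and Ptbp3 that the block called above. Probe set 5431105 of Cacna1d, a voltage-gated calcium channel gene on the RBFOX list, was at 7.86, 7.98 and 8.26 in controls and at 9.59, 9.96 and 9.78 after the Cugbp1 shRNA. It was 1.65 higher relative to its gene (standard error 0.28, diffSplice adjusted p = 0.000175), with all Cugbp1 shRNA arrays above all controls, and it passed without any 1 array (adjusted p = 1.09e-06 to 0.0304). The gene value of Cacna1d itself differed by 0.10 (limma adjusted p = 0.705).

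Probe set 5515581 of Ank3, the ankyrin-G gene on the NOVA list, was at 8.36, 8.84 and 8.27 in controls and at 7.22, 7.59 and 7.16 after the Cugbp1 shRNA. It was at -1.02 relative to its gene (standard error 0.24, diffSplice adjusted p = 0.0422), with no overlap. Probe set 4861979 of Mapk9 was at 7.13, 7.09 and 7.08 in controls and at 7.66, 7.27 and 7.40 after the Cugbp1 shRNA, 0.77 relative to its gene (adjusted p = 0.0310), of which the gene's own lower value is a part. Probe set 4886758 of Robo2, a guidance receptor gene, was at 8.21, 6.21 and 7.84 in controls and at 8.64, 8.23 and 8.29 after the Cugbp1 shRNA, 1.2 relative to its gene (adjusted p = 0.00767). Control replicate 2 was far below the other arrays there, and without it the Robo2 value was 0.55 (adjusted p = 1.00). The Ank3 call was also lost without control replicate 2 (-0.88, adjusted p = 0.892) or without any 1 of the Cugbp1 shRNA arrays (adjusted p = 0.129 to 0.406), and with median centring (adjusted p = 0.0531). Mapk9 lost it without the same arrays (adjusted p = 0.0712 to 0.398) and with arrays numbered 2 and 3 alone (0.68, adjusted p = 0.312). Robo2 also lost it without Cugbp1 shRNA replicate 1 (adjusted p = 0.171) or 3 (adjusted p = 0.139). With a variance for each probe set, moderated by limma, as a splicing index, none of the 4 passed (adjusted p = 1). The unadjusted limma p there was 7.91e-05 for Cacna1d, 0.000635 for Ank3, 0.00132 for Mapk9 and 0.0679 for Robo2. How many of all probe sets passed with the splicing index was not counted. Which exon each probe set lies in, and whether a member's change has a part in it, was not tested.

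**Figure D5:**
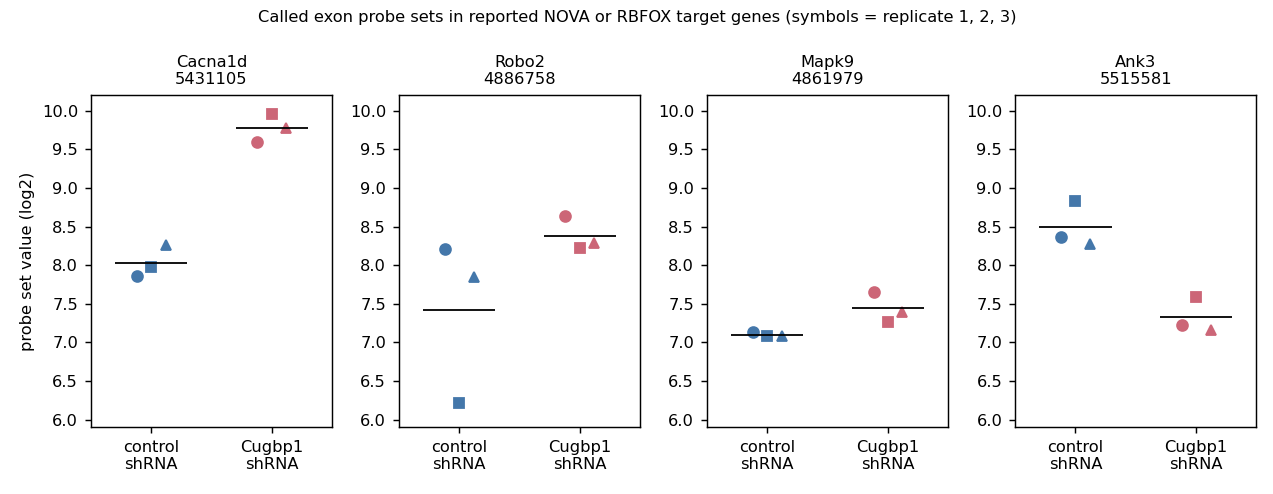
Probe set value (log2, y axis) on the 3 control and 3 Cugbp1 shRNA arrays (x axis) of the 4 probe sets called by diffSplice in reported NOVA or RBFOX target genes, with lines at group means. Cacna1d 5431105 lies between 7.86 and 8.26 in controls and between 9.59 and 9.96 after the Cugbp1 shRNA, and the Robo2 control mean is pulled down by 1 array at 6.21.

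The lists of cell type markers had median log2 changes of -0.07 to 0.15. That of all genes was -0.01, and 3.94% of all genes were called. Of 9 neuron markers limma called 0 (1 with unadjusted p under 0.05), with a median of -0.07, Dcx at -0.45 (adjusted p = 0.0893, and 0.00504 with the block) and Nefm at -0.30. The mean level of the neuron list was 11.95 to 12.10 over the controls and 11.87 to 11.93 over the Cugbp1 shRNA arrays, so these ranges do not overlap. Of 11 progenitor and proliferation markers limma called 0 (1 with unadjusted p under 0.05), with mean levels of 9.13 to 9.39 and 9.17 to 9.42. With the replicate block 3 of them were higher and 1 lower, where 9.31% of all genes were higher and 13.8% lower. The log2 change was 0.23 for Pcna, a replication clamp, and -0.61 for Eomes, a factor of intermediate progenitors. Their part in the fall of Rbfox1 and Ptbp3 was not tested.

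In the glial lists limma called 0 of 10 astrocyte, 0 of 8 oligodendrocyte and 0 of 10 microglia markers (0 with unadjusted p under 0.05 in each), with medians of -0.02, 0.13 and -0.05. The smallest p belonged to Fgfr3 (0.20) and Aqp4 (-0.26) among astrocyte markers, to Cspg4 (0.23) and Olig1 (0.20) among oligodendrocyte markers, and to C1qa (-0.23) and C1qb (-0.14) among microglia markers, given as log2 changes. With the block the astrocyte marker Aldh1l1, singled out after its values were seen, was lower (-0.21), as was C1qa (adjusted p = 0.0362). Of all genes 13.8% were lower with the block, and 3.94% were called without it. Mean levels of the astrocyte list were 9.85 to 9.90 in controls and 9.74 to 9.92 after the Cugbp1 shRNA, those of the oligodendrocyte list 9.49 to 9.82 and 9.58 to 9.76, and those of the microglia list 6.69 to 6.99 and 6.61 to 6.94. Of 9 endothelial and mural cell markers Pdgfrb fell by 0.80 (limma adjusted p = 0.0415), and of 9 fibroblast and meninges markers Thbs1 fell by 0.72 (adjusted p = 0.0444). The next smallest p in these lists belonged to Cspg4 (0.23) and Pdgfra (0.16). Mean levels were 6.90 to 7.32 and 6.92 to 7.17 for the endothelial and mural list, and 9.0 to 9.07 and 8.82 to 9.02 for the fibroblast list. Their part in the fall of Ptbp3, which is also expressed outside neurons, was not tested.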

How the data were processed

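Total RNA (100 ng per array) was hybridised to 6 Affymetrix exon arrays, 3 control and 3 Cugbp1 shRNA. According to the submitters' processing notes and per the labels, the authors computed log2 RMA expression values per exon probe set in Affymetrix Expression Console, with genome build mm9. No version, and no list of arrays normalized in 1 run, is given in the sources used here. RMA sets arrays to a shared distribution, so differences in total signal are removed (array medians 5.74 to 5.78).

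The 10 genes, the gene lists, the tests and the other settings were chosen with earlier results of these data known. Symbols were updated through RefSeq (GRCm38.p6), which served for names and promoter windows only. Of 1195555 probe sets, 316997 had 1 symbol, 6571 several, and 871987 were not listed. Kept probe sets had a mean over all arrays of at least the median, 5.73 (597778). A gene value is the Tukey median polish of at least 3 kept probe sets (16524 genes). Precision is limited by the number of arrays and by the spread between replicate numbers.

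Cugbp1 shRNA minus control was fitted in R 4.3.3 by limma 3.58.1 (eBayes, two-sided, Benjamini-Hochberg over all features, threshold 0.05), and exon usage with diffSplice. Both were run on simulated data with independent noise and no effect shared by same-numbered arrays. These arrays differ in that, so the simulation does not check the calls made here. The related genes were compared within arrays by exact permutation. Named are all 10 genes, for each the probe set of smallest p in either fit, called probe sets, called list genes and the 2 of smallest p per list, and the 3 genes most like each called member. Replicate 1 is the array without a number. Deviations from group means correlated between same-numbered arrays at 0.76, 0.50 and 0.72 across genes, so same-numbered arrays deviated alike. Arrays of different numbers were not compared in this way, and the main fit takes the arrays as unpaired. Alternatives were blocks for replicate number and label form, normalization, filters, variance models, array weights, gene summary, a splicing index and leaving out arrays.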

Additional observations from a re-analysis of the deposited data

How the results depend on the processing

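Over all 18 alternatives the change was -0.40 to -0.34 for Rbfox1 and -0.79 to -0.53 for Ptbp3. The blocks, trend and robust variances and a looser threshold cannot change these estimates. Without single arrays the sign could hardly change, since every Cugbp1 shRNA array lay below every control. The direction is therefore no test of either fall in these settings. The 2 members called became 1 with median centring, no filter or a mean in place of median polish, where Rbfox1 was lost (adjusted p = 0.0525, 0.0571 and 0.162), and 0 with replicates 2 and 3 alone or without any 1 array. In each of these settings 2 members kept an unadjusted p under 0.05 in limma. Celf1 stayed at -1.43 to -1.32 without single arrays (adjusted p = 0.0308 to 0.141). Member probe sets called rose from 0 to 17 with a random replicate block and 22 with array weights. Member exon usage calls rose from 0 to 5 with the replicate block as a fixed or random term, 8 with array weights and 1 with replicates 2 and 3 alone. Leaving out single arrays gave 0 in both counts. How many of all probe sets passed with the random block, array weights or replicates 2 and 3 alone was not counted. Listed genes called outside the members were 4, and 23 with the replicate block, 29 with a random block, 14 with a label form block, 7 with trend and robust variances, 28 with array weights, 2 with replicates 2 and 3 alone and 0 to 1 without single arrays. All genes called numbered 651, 3827 with the replicate block, 4573 with a random block and 2532 with a label form block. They numbered 1089 with trend and robust variances, 4226 with array weights and 677 with replicates 2 and 3 alone. Without control replicate 1 they numbered 271, and without any other single array 0 or 1. The block changed the call of none of the 10 members' gene values. The random block used the correlation of gene values, exon usage had robust variances without a trend, and the Mapk9 probe set did not reach the filter at the 75th percentile. With 3 arrays per group, small changes and dim probe sets are poorly resolved.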

Other observations

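Replicate 1 was the highest control for 7 of the 10 genes and the highest Cugbp1 shRNA array for 6, and replicate 3 was the lowest control for 6 and the lowest Cugbp1 shRNA array for 6. The SD was larger among controls than among Cugbp1 shRNA arrays for 9 of the 10 genes, Rbfox1 being the exception. These orders and SDs were not counted over all genes, so they are not shown to be particular to the 10. The 6 member probe sets below the filter, 3 of Rbfox1 and 1 each of Ptbp1, Khdrbs2 and Khdrbs3, had differences of -0.64 to 0.33 and were not tested.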
